A study of Mus musculus with 2 samples.

Results

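EP300 peaks at the promoters of long non-coding RNA (lncRNA) genes were examined in the newborn mouse heart. EP300, also called p300, is a histone acetyltransferase that transcription factors recruit to enhancers and promoters. Members were peaks of the authors' optimal list on chromosomes 1 to 19 with a summit within 1 kb of a lncRNA transcription start site (TSS) and over 1 kb from every protein-coding TSS. The lncRNA classes were the GENCODE M21 types lincRNA, antisense, processed_transcript and bidirectional_promoter_lncRNA. The rule found 466 peaks among 17169, a share of 2.71% (95% exact interval 2.48 to 2.97%). They were set against 5739 peaks within 1 kb of a protein-coding TSS and 10964 other distal peaks, which lie over 1 kb from both kinds of TSS.

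The peaks came from chromatin immunoprecipitation and sequencing of heart tissue at postnatal day 0, strain B6NCrl, with no treatment in the labels. There was 1 group of 2 samples, called replicates 1 and 2, which share a biosample and a donor identifier in the labels. Their spread may therefore be technical, and no test between conditions was possible. Peaks are the units of all tests below, so the p-values compare positions in 1 pooled list and not animals. The tissue label was checked by the number of optimal peaks nearest to marker genes. The heart muscle genes Myh6, Tnnt2, Actc1, Myl2, Ttn and Nppa had 27, 21, 12, 11, 4 and 1 such peaks. Of genes of other tissues, Ttr had 1 peak, and Alb, Hba-a1 and Neurod1 had 0.

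LncRNA genes are transcribed by RNA polymerase II, and many are spliced, but they code for no known protein. Their promoters resemble those of protein-coding genes in some cases. In other cases the transcript starts at an enhancer, a distal element bound by transcription factors and coactivators such as EP300. Some lncRNAs act as RNAs in the nucleus, others carry small nucleolar RNAs or microRNAs in their transcripts, and for many no function is known.

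The sequences at the 6 strongest members show the DNA under these peaks. Each runs 5′ to 3′ on the plus strand of GRCm38 (mm10), 200 bases centred on the summit, and capitals mark matches to the searched motifs. The window of Gm27252 is chr7:63896966-63897165, in an intron of Klf13. That of A230028O05Rik is chr16:25059286-25059485, and that of E230029C05Rik is chr7:90029865-90030064. The window of E130101E03Rik is chr9:24974164-24974363, in a lncRNA exon. The window of 1700113A16Rik is chr3:88177678-88177877, in a lncRNA exon, and that of Mhrt is chr14:54968403-54968602, upstream of the Mhrt TSS.
Gm27252: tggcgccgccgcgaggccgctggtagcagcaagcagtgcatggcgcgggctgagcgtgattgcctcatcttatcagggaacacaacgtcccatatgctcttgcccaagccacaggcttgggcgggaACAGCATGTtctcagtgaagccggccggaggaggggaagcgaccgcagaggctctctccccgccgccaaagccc
A230028O05Rik: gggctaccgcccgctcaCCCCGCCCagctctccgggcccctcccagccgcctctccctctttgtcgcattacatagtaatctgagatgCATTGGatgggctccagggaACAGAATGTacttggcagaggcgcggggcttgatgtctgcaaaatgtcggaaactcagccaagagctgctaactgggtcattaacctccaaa
E230029C05Rik: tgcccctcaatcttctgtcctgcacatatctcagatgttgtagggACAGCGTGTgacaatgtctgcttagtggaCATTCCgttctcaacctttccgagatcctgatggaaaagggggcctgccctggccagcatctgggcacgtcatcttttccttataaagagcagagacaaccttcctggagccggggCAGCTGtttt
E130101E03Rik: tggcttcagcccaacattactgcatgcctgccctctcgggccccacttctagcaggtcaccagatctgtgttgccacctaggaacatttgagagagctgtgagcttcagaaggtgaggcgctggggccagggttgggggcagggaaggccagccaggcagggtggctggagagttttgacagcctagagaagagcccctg
1700113A16Rik: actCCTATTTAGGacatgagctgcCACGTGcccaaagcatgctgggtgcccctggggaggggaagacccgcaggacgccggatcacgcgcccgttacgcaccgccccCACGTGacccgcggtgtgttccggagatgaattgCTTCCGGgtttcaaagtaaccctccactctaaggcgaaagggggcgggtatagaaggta
Mhrt: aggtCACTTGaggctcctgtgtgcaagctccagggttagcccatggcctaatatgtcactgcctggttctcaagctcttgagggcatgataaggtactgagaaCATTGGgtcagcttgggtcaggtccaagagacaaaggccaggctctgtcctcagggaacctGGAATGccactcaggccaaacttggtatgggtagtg
The first 3 windows each hold 1 match to the glucocorticoid receptor motif, ACANNNTGT, in which N is any base. In A230028O05Rik the capitals also mark a KLF/SP match and an NFY match, and in E230029C05Rik a TEAD match and a CAGCTG match. The window of E130101E03Rik holds 0 matches to the 18 motifs. The window of 1700113A16Rik holds 2 CACGTG matches, an ETS match and a CArG box, the site of serum response factor. That of Mhrt holds matches for NKX2, NFY and TEAD, whose factors include regulators of heart muscle genes.

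The strongest member lay 533 bp downstream of a TSS of Gm27252, within the gene of the transcription factor Klf13, and had a signal of 288.3. The signal is a value the authors gave each peak, and the formula behind it is not given in the sources used here. The same site had a signal of 157.8 in replicate 1 and 116.3 in replicate 2, rank 5 and rank 7 in those lists. The lincRNA A230028O05Rik followed with 265.6, and with 161.5 in replicate 1 and 109.7 in replicate 2. The nearest protein-coding TSS, that of Tprg, was 227431 bp away. E230029C05Rik had 157.5, and 82.5 in both replicates. These 3 stood within the first 100 peaks of the list, and 36 members within the first 1000. Members made up 2.71% of all peaks examined, and these counts were not tested against that share.

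Mhrt, an antisense transcript of the myosin heavy chain locus described in mouse heart, had a signal of 109.3, with 71.7 in replicate 1 and 50.7 in replicate 2. Its summit was 175 bp upstream of its TSS and 1576 bp from the TSS of Myh6, which codes for the alpha-myosin heavy chain. Gm49540, 7867 bp from the TSS of the myoglobin gene Mb, had 99.2, with 49.4 in replicate 1 and 51.4 in replicate 2. 1700113A16Rik had 130.4, with 56.7 in replicate 1 and 73.5 in replicate 2, and its nearest protein-coding TSS was that of Mef2d, a transcription factor of muscle genes, at 35206 bp. In replicate 1 the signal of Mhrt was the higher of the pair, and in 1700113A16Rik that of replicate 2 was. Replicate lists are on scales of their own, so these values describe each list and give no difference between samples.

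The other members among the first 15 had signals of 93.0 to 130.5. They were E130101E03Rik, AC163629.2 near the kinase gene Pim1, Gm13387 near the Notch pathway gene Nrarp, Zmiz1os1, Gm20109 near Fkbp5, CT030636.1 near the imprinted receptor gene Igf2r, 1700092K14Rik, Malat1 and Gm24474. Of the first 15, 14 were also in the conservative list. The exception was CT030636.1, with 97.5 in the optimal list, 9.84 in replicate 1 at rank 31434 and 61.6 in replicate 2 at rank 123. Its second member, 850 bp away, had 35.1, with 17.9 in replicate 1 and 18.2 in replicate 2.

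**Figure D1:**
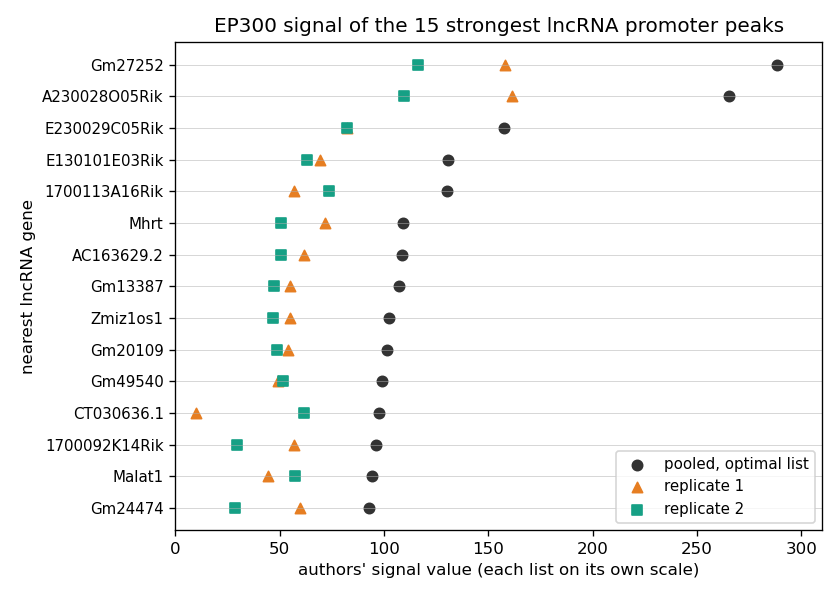
Signal of the 15 strongest lncRNA promoter peaks (x axis, the authors' signal value, each list on its own scale) by nearest lncRNA gene (y axis); circles are the optimal list, triangles replicate 1 and squares replicate 2. Gm27252 and A230028O05Rik stand apart at 288.3 and 265.6, and CT030636.1 is the 1 gene whose replicate 1 value, 9.84, lies far below its replicate 2 value, 61.6.

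Over all members the signal had a median of 30.7, with quartiles of 22.0 and 44.8 and a range of 6.98 to 288.3. The medians of protein-coding promoter peaks and of other distal peaks were both 30.7. The top 20% of the list by signal held 97 of 466 members (20.8%), against 1163 of 5739 protein-coding promoter peaks (20.3%) and 2173 of 10964 other distal peaks (19.8%). Neither difference passed Fisher's exact test (odds ratio 1.03, adjusted p = 0.799, and odds ratio 1.06, adjusted p = 0.742; 2-sided, Benjamini-Hochberg over 10 comparisons). The largest signals in the list were 288.3 at lncRNA promoters, 281.7 at protein-coding promoters and 310.9 at other distal peaks.

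**Figure D2:**
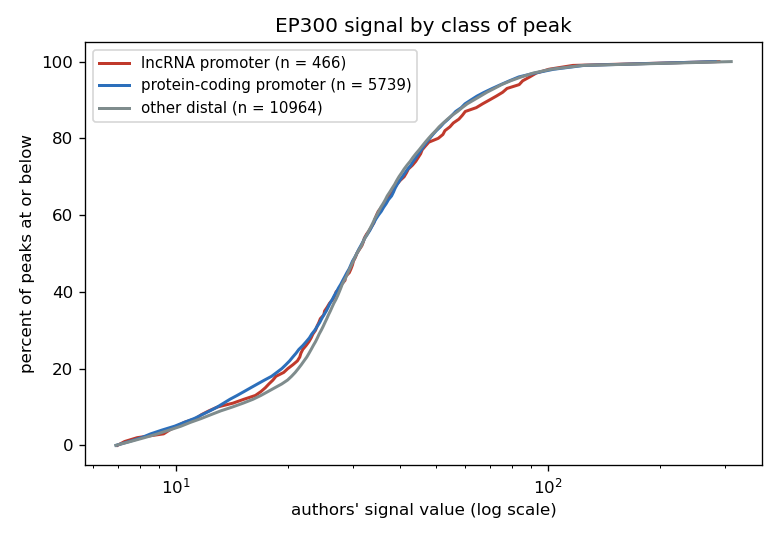
Percent of peaks at or below a signal (y axis) against the authors' signal value on a log scale (x axis) for lncRNA promoter, protein-coding promoter and other distal peaks. The 3 curves cross near their shared median of 30.7.

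A summit in the full replicate 1 list stood within 100 bp of 405 members, and one in the full replicate 2 list of 349. Each full list holds 300000 calls, far more than the optimal list, and the background over all peaks was not computed. The matched summit was among the 17372 strongest of its list for 299 members in replicate 1 and 250 in replicate 2. For the 305 members found in both lists, the 2 signals had a Spearman correlation of 0.510 and a Pearson correlation of 0.763 across peaks, a description only, since peaks share the libraries. A stricter measure asked for a summit within 100 bp among the 17372 strongest peaks of each replicate, as many as the optimal list holds. This was met by 175 members (37.6%), against a background of 40.9% over all peaks. The shares were 37.6% of members and 36.1% of protein-coding promoter peaks (Fisher's exact test, odds ratio 1.06, adjusted p = 0.742). Other distal peaks were shared in 4781 of 10964 cases (43.6%), more often than members (Fisher's exact test, odds ratio 0.778, adjusted p = 0.0249). The difference was lost with a wider distance for a shared summit (odds ratio 0.925), in the conservative list (0.815) and with merged summits (0.798). A −log10 q of at least 2 was reached by 269 members, 57.7%, and the background was also 57.7%. The conservative list held 326 members, 70.0%, against a background of 71.8%.

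By the rule, members lay over 1 kb from every protein-coding TSS and within 1 kb of a lncRNA TSS. The distance to the lncRNA TSS had a median of 229 bp, with quartiles of 96 and 551 bp, and was at most 250 bp in 242 members (51.9%). Protein-coding promoter peaks lay closer to their TSS, with a median of 128 bp and 4103 of 5739 (71.5%) within 250 bp. Both distances are bounded by the 1 kb of the rule, so they are given with no test. The summit was upstream of the TSS in 257 members (55.2%), against 3370 protein-coding promoter peaks (58.7%), which did not pass Fisher's exact test (odds ratio 0.864, adjusted p = 0.238). Among peaks without CpG-island-like sequence, a subset chosen after seeing the data, it was 0.691 and passed (adjusted p = 0.00924, exact test), and with merged summits 0.769.

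**Figure D3:**
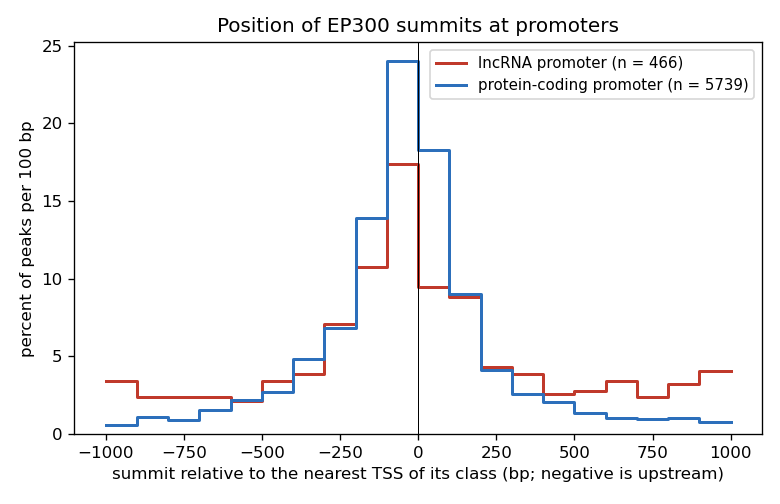
Percent of peaks per 100 bp (y axis) by the position of the summit relative to the nearest TSS of its class (x axis, bp, negative upstream) for lncRNA promoter and protein-coding promoter peaks. The bin just upstream holds 17.4% of lncRNA promoter peaks and 24.0% of protein-coding promoter peaks, and the lncRNA curve is flatter.

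The nearest protein-coding TSS was at a median of 26527 bp, with quartiles of 7816 and 74346 bp, and over 50 kb away for 152 members. Of the 94 members 1 to 5 kb from a protein-coding TSS, 50 had a lncRNA on the divergent side, transcribed away from that gene. By type, 283 members were lincRNA promoters (60.7%), 115 antisense (24.7%) and 68 processed_transcript (14.6%), and none was of the bidirectional type. Inside a protein-coding gene lay 95 members, of which 71 were antisense, 13 lincRNA and 11 processed_transcript. The median signal was 31.1 in lincRNA, 28.3 in antisense and 33.5 in processed_transcript members.

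Of 7552 lncRNA genes with a TSS over 1 kb from every protein-coding TSS, 355 had a member peak (4.70%, 4.23 to 5.20%), against 4598 of 20757 protein-coding genes (22.2%, 21.6 to 22.7%). The share was 222 of 4888 lincRNA genes (4.54%), 82 of 2106 antisense genes (3.89%), 51 of 541 processed_transcript genes (9.43%) and 0 of 17 bidirectional genes. These counts depend on the annotated starts as well, and they are given with intervals and no test.

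CpG-island-like sequence, the GC- and CpG-rich DNA of many promoters, was less common at members than at protein-coding promoter peaks and more common than at other distal peaks. It was called where the 500 bases around the summit had a GC content of at least 0.55 and an observed over expected CpG ratio of at least 0.65. This held for 87 of 466 members (18.7%), against 3555 of 5739 protein-coding promoter peaks (61.9%) and 251 of 10964 other distal peaks (2.29%), with a background of 22.7%. The odds ratio was 0.141 against protein-coding promoters (Fisher's exact test, adjusted p = 1.25e-74) and 9.80 against other distal peaks (adjusted p = 8.48e-46). A peak within 1 kb of both kinds of TSS counted as a protein-coding promoter peak. Other distal peaks had neither kind within 1 kb. These comparisons therefore describe the classes as the rule cuts them, and not all lncRNA promoters. The median GC content was 52.8% in members, 61.2% in protein-coding promoter peaks and 49% in other distal peaks. By type, 54 of the CpG-island-like members were lincRNA, 22 processed_transcript and 11 antisense.

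At the level of genes, the start of 66 of 355 lncRNA genes with a member peak was CpG-island-like (18.6%), against 178 of the lncRNA genes without one (2.47%; odds ratio 9.01, Fisher's exact test, adjusted p = 6.22e-33). Read the other way, 66 of 244 CpG-island-like lncRNA genes had a peak (27.0%, 21.6 to 33.1%), and 289 of 7308 other lncRNA genes (3.95%). The start scored in each lncRNA gene was its most 5′ TSS over 1 kb from every protein-coding TSS. A member near any such TSS counted, so the scored start need not be the one with the peak. Protein-coding genes with a CpG-island-like start had a peak in 3273 of 9009 cases (36.3%), and other protein-coding genes in 1325 of 11748 (11.3%). CpG-island-like starts were 3.23% of these 7552 lncRNA genes and 43.4% of all 20757 protein-coding genes. The 3.23% leaves out lncRNA starts within 1 kb of a protein-coding TSS, so it is not the share among all lncRNA genes.

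CpG-island-like members had a median signal of 36.6, and 24 of 87 stood in the top 20% (27.6%). The other 379 members had a median of 29.9, with 73 in the top 20% (19.3%). Their summits lay at a median of 169 bp from the lncRNA TSS in CpG-island-like members and 252 bp in the others. Repeat sequence covered over 50% of the 200 bases at the summit in 3 of 466 members (0.644%), 54 of 5739 protein-coding promoter peaks (0.941%) and 175 of 10964 other distal peaks (1.60%). Neither difference in repeat cover passed Fisher's exact test (odds ratio 0.682, adjusted p = 0.799, and 0.399, adjusted p = 0.238), and the direction against protein-coding promoters reversed in several alternatives. The base at the summit itself was soft-masked in 39 members, 423 protein-coding promoter peaks and 969 other distal peaks. The odds ratios of that measure were 1.15 and 0.942.

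**Figure D4:**
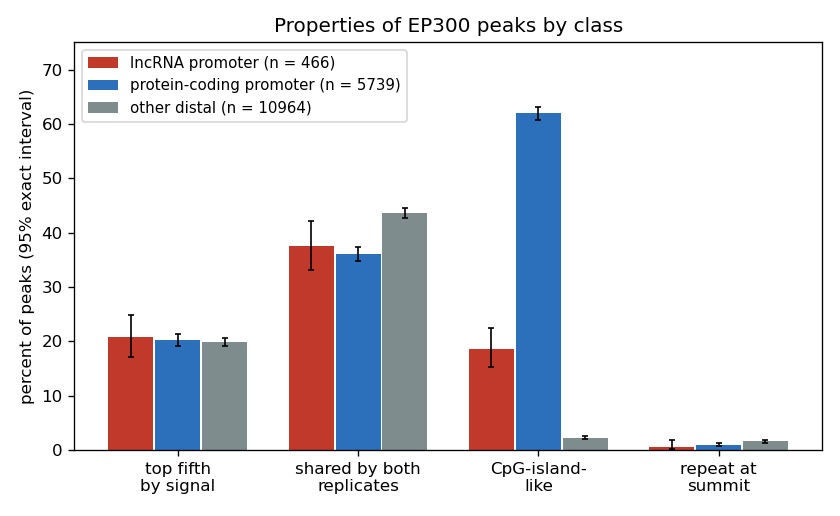
Percent of peaks (y axis) in the top 20% by signal, shared by both replicates, with CpG-island-like sequence and with a repeat at the summit, for lncRNA promoter, protein-coding promoter and other distal peaks; bars start at 0 and the error bars are 95% exact intervals of counting error. CpG-island-like sequence stands between the other classes at 18.7%, and the share held by both replicates is 37.6%, against 43.6% in other distal peaks.

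Transcription factor motifs were searched as consensus matches on either strand in the 200 bases around each summit. A base can count for more than 1 motif, and a match is a description of the sequence and not a bound site. Against windows 1 kb to the right of the same summits, 5 of 18 motifs (27.8%) were more common at member summits by an exact sign test with Benjamini-Hochberg adjustment. Flanks were compared for members only and were not matched for GC content. Whether these differences are particular to members was not tested. CAGCTG, the class A E-box of muscle and other bHLH factors, stood in 97 members at the summit and in 61 at the flank (20.8% and 13.1%, exact sign test, adjusted p = 0.00769). The TEAD motif GGAATG, read by factors of the Hippo pathway, stood in 83 and 45 (exact sign test, adjusted p = 0.00171). The ETS motif CCGGAAG stood in 38 and 10 (exact sign test, adjusted p = 0.000555), the KLF/SP motif GGGCGGGG in 37 and 9 (adjusted p = 0.000555), and CACGTG in 34 and 15 (adjusted p = 0.0238). The glucocorticoid receptor motif stood in 37 at the summit and 29 at the flank, which did not pass the exact sign test (adjusted p = 0.614). In replicate 2 alone the ETS call was lost (exact sign test, adjusted p = 0.0875). In 100-base windows the calls for CAGCTG (adjusted p = 0.134), CACGTG (adjusted p = 0.134) and TEAD (adjusted p = 0.0759) were lost by the exact sign test. That for CAGCTG was also lost in the conservative list (exact sign test, adjusted p = 0.0597), and that for CACGTG among members over 5 kb from protein-coding TSSs (exact sign test, adjusted p = 0.121).

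Member summits shared some motif levels with other distal peaks and lay between the classes in others. Against protein-coding promoter peaks, 13 of 18 motifs differed (72.2%), and against other distal peaks 4 of 18 (22.2%; Fisher's exact test, Benjamini-Hochberg over 36 comparisons). CAGCTG was at 20.8% in members, 11.6% in protein-coding promoter peaks (Fisher's exact test, odds ratio 2.00, adjusted p = 4.61e-07) and 20.9% in other distal peaks (odds ratio 0.992, adjusted p = 1). TEAD was at 17.8%, 9.17% and 17.8% in the same order, and AP-1, TGANTCA, at 9.66%, 3.78% and 9.15%. The motif of GATA factors, spelled AGATAA, was at 11.6% in members, above protein-coding promoter peaks at 4.90% and below other distal peaks at 17.4% (Fisher's exact test, odds ratio 0.623, adjusted p = 0.00237). The difference from other distal peaks was lost in 100-base windows (odds ratio 0.809, Fisher's exact test, adjusted p = 0.486) and among peaks without CpG-island-like sequence (odds ratio 0.690, Fisher's exact test, adjusted p = 0.0576).

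The motifs of GC-rich promoters ran the other way. ETS was at 8.15% in members, 14.8% in protein-coding promoter peaks (Fisher's exact test, odds ratio 0.511, adjusted p = 0.000122) and 2.62% in other distal peaks (odds ratio 3.30, adjusted p = 7.43e-08). KLF/SP was at 7.94%, 15.8% and 2.37%, with odds ratios of 0.459 and 3.55. CREB, TGACGTCA, stood in 8 members, 1.72%, against 0.575% of other distal peaks (Fisher's exact test, odds ratio 3.02, adjusted p = 0.0181). NFY (CCAAT followed by C or G), NRF1 and YY1 (ATGGCGGC) were lower than in protein-coding promoter peaks, with odds ratios of 0.646, 0.254 and 0.101. MEF2, NKX2 (CAAGTG), the glucocorticoid receptor motif and CTCF were higher, with 2.79, 1.88, 2.86 and 3.11. In replicate 2 alone the call for CTCF was lost (odds ratio 1.12, Fisher's exact test, adjusted p = 0.842). In replicate 1 alone those for NKX2 (odds ratio 1.43, Fisher's exact test, adjusted p = 0.0726) and CREB (odds ratio 2.13, Fisher's exact test, adjusted p = 0.119) were lost. By Fisher's exact test CREB was also lost at 500 bp (adjusted p = 0.0557), in the conservative list (0.0605) and over 5 kb from protein-coding TSSs (0.137). CTCF was lost in the conservative list (Fisher's exact test, adjusted p = 0.0738) and over 5 kb (0.100). In 100-base windows CTCF and NRF1 were lost (Fisher's exact test, adjusted p = 0.137 for each). T-box (AGGTGTGA), STAT (TTCCNGGAA) and CArG box matches stood in 3, 7 and 7 members and passed in neither comparison.

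**Figure D5:**
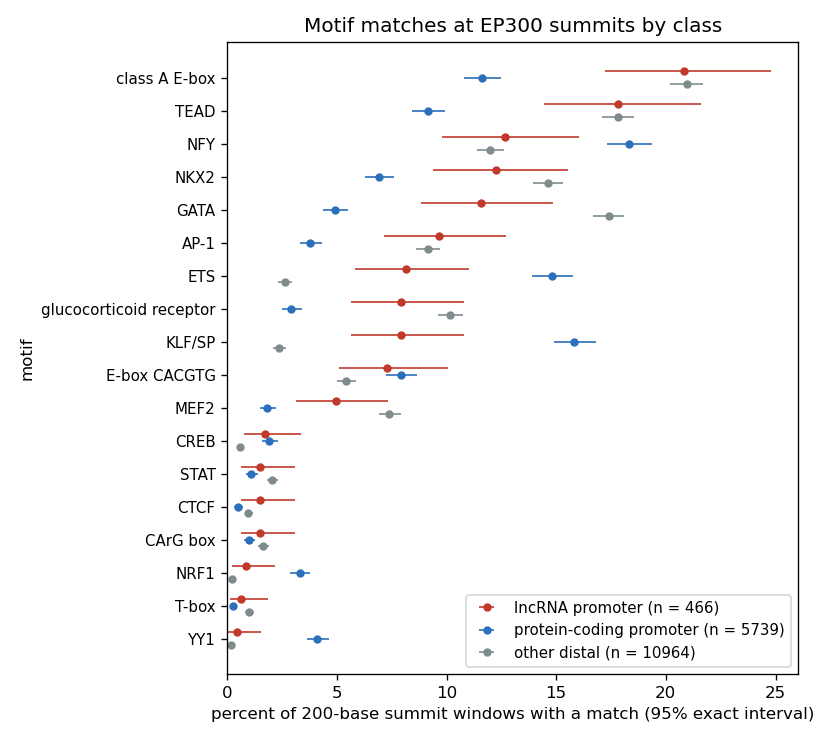
Percent of 200-base summit windows with a match (x axis) for each of 18 motifs (y axis) in lncRNA promoter, protein-coding promoter and other distal peaks; points are shares and lines 95% exact intervals of counting error. CAGCTG and TEAD at lncRNA promoters lie at the level of other distal peaks, and ETS and KLF/SP lie between the classes.

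When each class was split by CpG-island-like sequence, a split chosen after seeing the data, 0 of 18 motifs passed against either class among CpG-island-like peaks, with 87 members in that subset. Some odds ratios against protein-coding promoter peaks were as large there as over all peaks, but on few members. They were 4.17 for AP-1 (7 members, Fisher's exact test, adjusted p = 0.0969), 5.04 for MEF2 (3 members), 2.95 for GATA (5 members) and 3.12 for the glucocorticoid receptor motif (4 members). Others were smaller, such as 1.47 for TEAD, or reversed, at 0.849 for CAGCTG, 0.651 for NKX2 and 1.29 for KLF/SP. Among the 379 other members, CAGCTG (23.7% against 15.3%, adjusted p = 0.00337) and TEAD (19.5% against 12.3%, adjusted p = 0.00352) remained above protein-coding promoter peaks by Fisher's exact test, and ETS above other distal peaks (5.80% against 2.39%, adjusted p = 0.00352). ETS stood in 16 of 87 CpG-island-like members (18.4%) and 22 of 379 others (5.80%), and CAGCTG in 7 of 87 (8.05%) and 90 of 379 (23.7%).

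Among lncRNA genes of known classes, 5 of 10 hosts of small nucleolar RNAs and 5 of 7 abundant nuclear and general lncRNAs had a member peak. Of all eligible lncRNA genes, 4.70% had a member peak. That share was 27.0% with a CpG-island-like start and 3.95% without one, and the lists were not matched to it by start. The lists were chosen with earlier results of these data known, and no test was made. Small nucleolar RNAs guide the modification of ribosomal RNA. Among their hosts Snhg5 had a signal of 74.5, with 53.1 in replicate 1 and 16.1 in replicate 2. Snhg15, Snhg6, Snhg17 and Snhg12 had 25.4 to 32.2. Gas5, Snhg1, Snhg9 and Snhg10 had peaks that the rule counts as protein-coding promoter peaks, so these were not members.

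Of 9 microRNA hosts, 3 had a member. Mir17hg, host of the miR-17 cluster linked to cell proliferation, had 2 members, the stronger at 45.7, with 24.8 in replicate 1 and no summit within 100 bp in replicate 2. Mir22hg, host of a microRNA abundant in heart muscle, had 3 members within 700 bp. Its strongest had 41.7, with 32.7 in replicate 1 and 4.49 in replicate 2. Mir155hg had 21.7, with 11.3 in replicate 1 and 7.14 in replicate 2.

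Of the abundant lncRNAs, Malat1, a nuclear RNA of splicing speckles, had 94.3, with 44.5 in replicate 1 and 57.2 in replicate 2. A stronger peak of 132.6 lay 1006 bp upstream of its TSS, just outside the rule. Neat1, the scaffold of paraspeckles, had a TSS 490 bp from a member of 72.3 whose nearest lncRNA was Frmd8os. Epb41l4aos had 68.4, Pvt1, the neighbour of Myc, 35.0, and Dleu2 14.9. The members just inside the 1 kb limit were at B230206L02Rik (999 bp, 59.3), Trerf1 (998 bp, 41.8) and 5430431A17Rik (995 bp, 39.3), and the other peaks just outside at Gm40841 (1012 bp, 12.5) and Gm17745 (1020 bp, 13.4).

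Mhrt was the 1 of 7 lncRNAs of the heart and cardiac loci with a member, and Bvht, Hand2os1, Fendrr, Miat, Wt1os and Kcnq1ot1 had no optimal peak within 1 kb of a TSS. None of 7 imprinted lncRNAs, H19, Meg3, Rian, Mirg, Kcnq1ot1, Airn and Nespas, and none of 7 Hox antisense genes had one. No peak in the list says only that none was called, since the depth behind the list is unknown.

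Members also lay near protein-coding genes of heart muscle, an assignment by distance and not a measured link. The nearest protein-coding gene belonged to the heart muscle list for 11 members. These were nearest to 9 of its 92 genes (9.78%, 4.57 to 17.8%), against 337 of all 20757 protein-coding genes (1.62%). The list was chosen with earlier results of these data known. The same share was not computed for the other classes of peak, so whether it is particular to members was not tested. Besides Myh6, Mb and Mef2d, these were Trdn, a protein of calcium release (D830005E20Rik, signal 87.4), the transcription factor genes Tbx3 (Tbx3os1, 86.8), Gata5 (B230312C02Rik, 85.7), Nkx2-5 (Gm20468, 45.9) and Gata4 (Gm49390, 21.7, and Gm5463, 17.8), and Myocd, the coactivator myocardin (Gm12295, 69.7 and 36.5). The distances ran from 1576 bp at Myh6 to 96328 bp at Myocd.

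The endothelial list held 4 of 45 such genes (8.89%): Nrarp, Elk3, Ets1 and Kdr, a receptor of vascular endothelial growth factor, with Gm19590 at 142535 bp and a signal of 32.0. The clock and glucocorticoid list held 4 of 48 (8.33%). The limits given for the heart muscle list hold for these lists as well. Gm20109, 5671 bp from Fkbp5, had 101.3, and 2410080I02Rik, 6138 bp from Klf9, had 92.4, with 38.6 in replicate 1 and 53.2 in replicate 2. Fkbp5 and Klf9 are induced by glucocorticoids in many tissues. The windows of these 2 members hold the glucocorticoid receptor motif, and those of the other 3 members of the list do not. The others were Cebpb (Gm14321, 64.6, and 9230111E07Rik, 22.9) and Dusp1 (AC122252.2, 30.4).

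Neighbouring calls occurred among members about as often as over the whole list. Merging summits closer than the usual peak width left 376 sites of the 466 members, and 13917 sites of all 17169 peaks. The members were nearest to 358 lncRNA genes, of which 262 had 1 member, 86 had 2, 9 had 3 and 1 had 5. The gene with 5 was Gm38102, near Rhof, whose members spanned 1615 bp and reached 35.2. Of the next 4, AC163629.2 had members up to 24473 bp apart, at 2 of its TSSs, the strongest at 108.6. 5430431A17Rik, B230206L02Rik and 5430403N17Rik each had 3 members within 1194 to 1926 bp, with highest signals of 74.0, 59.3 and 48.0.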

How the data were processed

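EP300 ChIP-seq peaks of 2 newborn heart samples were used as deposited. Per the file headers the coordinates are mm10, replicate 1 was called with 2 control alignment files and replicate 2 with 1, and the IDR lists derive from both replicate lists and the pooled list. No source used here names the aligner, the caller or their versions. The deposited signal, −log10 q and score (IDR lists) are the authors' values per peak, and served here to rank, filter or describe peaks of the same list. The files hold no counts, so depth is unknown, and intervals (Clopper-Pearson, 95%) cover counting error only. The 203 optimal peaks outside chromosomes 1 to 19 were left out. Classes came from GENCODE M21 (52099 protein-coding and 13481 lncRNA TSSs), and sequence from GRCm38, once all peaks and genes had been checked against the chromosome lengths.

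Fisher's exact tests and exact sign tests were 2-sided, with a threshold of 0.05 after Benjamini-Hochberg adjustment over 10, 36 or 18 tests. The motif tests were tested on simulated data. Named genes are those of the 15 strongest members, the 5 lncRNA genes with most members, entries of the gene lists, and the 3 members on each side of the 1 kb limit; other genes were picked with their values known. The members and lists were chosen with earlier results of these data known. Alternatives were limits of 500 bp and 2 kb, the conservative list, merged summits, each replicate alone, members over 5 kb from protein-coding TSSs, other distances, CpG limits, repeat calls and motif windows and, chosen after seeing the data, the split by CpG-island-like sequence. Tests ran in SciPy 1.17.1 under Python 3.11.15, tables in pandas 2.3.3 and numpy 2.4.6, and figures in matplotlib 3.10.9.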

Additional observations from a re-analysis of the deposited data

How the results depend on the processing

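The share of peaks at lncRNA promoters was 2.71%, 2.20% with a limit of 500 bp and 3.55% with 2 kb. Members were shared less often than other distal peaks (odds ratio 0.778), but the call was lost at 500 bp (0.911), 2 kb (0.876), in the conservative list (0.815), with merged summits (0.798), over 5 kb from protein-coding TSSs (0.835) and with a wider distance for a shared summit (0.925), and the direction reversed among CpG-island-like peaks (1.08). Against protein-coding promoters sharing passed at 2 kb (1.22). The repeat odds ratio of 0.682 against protein-coding promoters reversed at 500 bp (1.03), in the conservative list (1.28), with merged summits (1.08) and by the base at the summit (1.15), and ranged from 1.02 to 2.06 with each replicate left out. Against other distal peaks it ranged from 0.332 to 1.08. The upstream share passed with merged summits (0.769) and without CpG-island-like peaks (0.691), where the top 20% against other distal peaks reversed (0.963). Motifs past the threshold against flanks fell to 3 in 100-base windows, among them ETS and KLF/SP but neither E-box nor TEAD, and those against other distal peaks were 7 in 300-base windows. Among CpG-island-like peaks 0 and 0 motifs passed against the other classes, and among the rest 2 and 1. Single motifs that reversed among CpG-island-like peaks were CAGCTG (0.849), KLF/SP (1.29) and NKX2 (0.651) against protein-coding promoters, and GATA (1.64) and CREB (0.960) against other distal peaks. The causes were not tested. The remaining alternatives for class comparisons and counts of motifs kept their direction and side of the threshold, or stayed within 1.5 times for counts. For single motifs, 189 kept call and direction and 43 kept the direction but lost the call, most of them in the split by CpG-island-like sequence. No paired analysis was possible because there is 1 group. Sharing could not be computed with a replicate left out.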

Other observations

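The glucocorticoid receptor motif stood in 16 of 97 members of the top 20% by signal (16.5%, 9.73 to 25.4%) and in 21 of 369 below it (5.69%, 3.56 to 8.57%), a split chosen after the values were seen and not tested. In protein-coding promoter peaks the shares were 4.13% in the top 20% and 2.62% below it, and in other distal peaks 13.6% and 9.32%. CAGCTG stood in 21.6% of members in the top 20% and 20.6% below it, and TEAD in 19.6% and 17.3%.

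The member of CT030636.1, with 9.84 in replicate 1 and 61.6 in replicate 2, and the strongest of Mir22hg, with 32.7 and 4.49, had the lowest and the highest value of replicate 1 over replicate 2, 0.16 and 7.29, among the 305 members found in both replicate lists, whose median was 1.36. The lists are on scales of their own, and by the difference of the signals other members were further apart.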
